A study of Mus musculus with 78 samples.

Results

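The p53 response genes described here are 10 genes, Mdm2, Cdkn1a, Ccng1, Phlda3, Trp53inp1, Bbc3, Bax, Zmat3, Sesn1 and Rrm2b, followed in mouse embryonic stem cells after loss of the transcription factor ZFP143. They were taken by symbol from a list of p53 targets that was drawn up with earlier results of these data known, and no measured value enters the rule. All 10 are among the 55401 genes of each of the 3 count tables, and all 10 passed the filter on low counts in each table. Of the 78 samples of the series, 24 libraries measured RNA per gene. The questions were when, over 2 h to 72 h of depletion, these genes changed, and whether depletion acted on them alike before and after retinoic acid (RA).

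The p53 protein is a transcription factor that is held at low activity in unstressed cells, mainly because MDM2 binds it and marks it for degradation, and that is released by DNA damage and by disturbed ribosome production, among other stresses. Its targets slow the cell cycle, promote apoptosis, repair DNA and adjust metabolism, and one of them is Mdm2 itself, which closes a feedback loop. Embryonic stem cells are known for abundant p53 and for a short gap phase before DNA replication.

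All libraries came from E14TG2a mouse embryonic stem cells in which both copies of Zfp143 carry an FKBP degron tag, and how many clones were used is not given in the sources used here. The controls carry the same tag, so that every comparison is between tagged cells given 500 nM dTAG-V1, a small molecule that sends the tagged protein for degradation, and tagged cells given its solvent DMSO. Nascent RNA was measured by TT-seq, in which RNA made during 10 min with 2 mM 4-thiouridine is captured, in cells given DMSO and after 2 h, 6 h and 24 h of dTAG-V1. Total levels of messenger RNA were measured by RNA-seq in DMSO and after 24 h, 48 h and 72 h. In each of these series the same DMSO group served every time, and its hours in culture are not given in the sources used here. Length of depletion and time in culture therefore cannot be told apart in them. In a separate RNA-seq table, cells received DMSO or dTAG-V1 for 24 h and were then either collected or taken on for another 24 h with RA. The stem cells grew in a 2i medium with LIF, and at the start of RA a medium without them, N2B27, took its place, so that RA and the change of medium cannot be told apart and there was no library with the new medium alone. The depleted RA cells had 48 h of dTAG-V1 and the depleted cells before RA had 24 h, so the length of depletion also differs between before and after RA. Each group had 2 libraries. The study's methods call them biological replicates without saying whether they were separate cultures, and p-values measure the spread between these libraries, which may be technical.

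The members fall into 5 roles, and all are protein-coding genes of the mm10 (GRCm38) build. Mdm2 (chr10:117688875-117710758, minus strand) restrains p53, and Cdkn1a (chr17:29090976-29100727, plus strand) and Ccng1 (chr11:40748552-40755311, minus strand) act in the cell cycle. Phlda3 (chr1:135766119-135769136, plus strand), Trp53inp1 (chr4:11156431-11174379, plus strand), Bbc3 (chr7:16308393-16318205, plus strand) and Bax (chr7:45461697-45466898, minus strand) act on survival and apoptosis. Zmat3 (chr3:32334792-32366014, minus strand) binds RNA, and Sesn1 (chr10:41809935-41908424, plus strand) and Rrm2b (chr15:37923952-37961318, minus strand) act in metabolism and the supply of DNA precursors.

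Sequence near the gene starts is shown next, because it differs between the members. The members were chosen as p53 targets, so their share of p53 matches against all genes is not independent of that choice. The p53 consensus is a pair of decamers, each with a C, 2 bases that are A or T and a G at its core. The C and the G were required, and mismatches were counted at all other bases. With at most 2 mismatches and at most 1 base between the decamers, it was found within 5000 bp of the start of 6 of the 10 genes, against 24.6% of 14956 tested protein-coding genes. With at most 1 mismatch it was found at 4 of the 10 genes, against 5.11% of all, and with no mismatch at 2, Trp53inp1 and Zmat3, against 0.555%. Sites are from the mm10 (GRCm38) genome and are written 5′ to 3′ on the strand of the gene, with the 4 core bases of each decamer in capitals, and the distance is from the annotated gene start. The annotated gene start is the outermost edge of the gene, and its transcripts can start further in. All matches with at most 2 mismatches at the 6 genes are shown. They are matches of letters and were not tested for p53 binding.

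Cdkn1a, chr17:29090928-29090947, 38 bp upstream, 1 mismatch: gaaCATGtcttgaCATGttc
Ccng1, chr11:40755462-40755481, 161 bp upstream, 1 mismatch: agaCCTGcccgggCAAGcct
Ccng1, chr11:40754936-40754955, 365 bp downstream in an intron, 1 mismatch: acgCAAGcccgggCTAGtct
Trp53inp1, chr4:11155112-11155132, 1309 bp upstream, 0 mismatches: aaaCATGtccaggaCTAGcct
Zmat3, chr3:32364331-32364350, 1673 bp downstream in an annotated exon, 0 mismatches: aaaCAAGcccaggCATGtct
Zmat3, chr3:32364341-32364361, 1663 bp downstream in an annotated exon, 2 mismatches: aagCATGtgagaaaCAAGccc
Zmat3, chr3:32370151-32370170, 4147 bp upstream, 1 mismatch: gagCAAGtctgggCTTGtta
Phlda3, chr1:135762876-135762896, 3233 bp upstream, 2 mismatches: agaCTAGcctcaaaCTTGtgg
Bax, chr7:45467079-45467099, 191 bp upstream, 2 mismatches: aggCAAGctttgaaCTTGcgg
Bax, chr7:45466574-45466593, 314 bp downstream in an annotated exon, 2 mismatches: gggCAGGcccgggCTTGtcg

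No such match was found at Mdm2, Bbc3, Sesn1 or Rrm2b, which says only that these letters are not in this window. With 3 mismatches, a setting chosen after the data were seen, 9 of the 10 genes had a match, against 67.9% of all genes. That setting gives both Mdm2 sites below. The first lies 643 bp downstream of the gene start, in an annotated exon and inside a ZFP143 peak described further on. The second lies 4091 bp downstream in an intron, outside that peak.

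Mdm2, chr10:117710105-117710124, 3 mismatches: ggtCAAGttgggaCACGtcc
Mdm2, chr10:117706657-117706677, 3 mismatches: tgaCGTGgctagagCAAGctc

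The libraries held 9721568 to 16532077 counts in TT-seq, 10261851 to 15316700 in the RNA-seq time course and 13890761 to 27089033 in the RA table, and no pair of libraries was identical. Levels are given as CPM, counts relative to the library's total after TMM scaling. The Zfp143 transcript itself was higher on depletion in every comparison with DMSO, by 1.16 to 1.19 on the log2 scale in TT-seq and by 1.09 to 1.38 in RNA-seq. The tag acts on the protein, so these counts do not check the depletion. All 11 stem cell markers, Pou5f1 and Nanog among them, had at least 10 counts in every RNA-seq library without RA, as did 10 or 11 of them in the TT-seq groups, and their summed level in the time course was 7260 to 7430 CPM in DMSO and 4590 to 4630 CPM after 72 h, where 5 of the 11 had fallen, beside 12% of all genes. In the same order, the 8 primitive endoderm markers summed to 6.69 to 7.82 CPM and 19.1 to 19.5 CPM, the 6 trophoblast markers to 0.367 to 0.64 CPM and 2.11 to 2.31 CPM, the 5 mesoderm markers to 9.53 to 10.1 CPM and 17.5 to 18.9 CPM, and the 6 fibroblast markers to 2.47 to 2.77 CPM and 2.79 to 3.87 CPM, while the 6 neural markers summed to 224 to 235 CPM and 148 to 155 CPM. Of the markers on these lists, Cdx2 (trophoblast), Neurog2 (neural), and Twist2 and Postn (fibroblast) were at 0 in all 8 libraries of the time course. Of the markers with enough counts to be tested at 72 h, 3 of 4 of primitive endoderm, 1 of 1 of trophoblast, 1 of 2 of fibroblasts and 1 of 4 of neural cells rose, 2 of the neural ones fell, and the 1 of mesoderm was not called. Transcripts of mitochondrial DNA went from 1.72% to 1.92% of counts in DMSO to 0.76% to 0.768% at 72 h. In 1 DMSO library of the time course, replicate 1, the RNA CT010467.1 took 3.59% of counts, where the top gene of the other 7 took 0.764% to 1.11%, and without that library the members called numbered the same, 4 at 48 h and 3 at 72 h. In bulk RNA, fewer cells of a type and less RNA per cell cannot be told apart. The part of these shifts in the results below was not tested.

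Across the depletion comparisons, 5 members were called in at least 1 of them at the thresholds given below, all upward, and none before 48 h. Mdm2, Phlda3 and Trp53inp1 rose at 48 h without RA and again after RA, Ccng1 rose at 48 h and 72 h without RA, and Cdkn1a rose only in the comparison after RA. Bbc3, Bax, Zmat3, Sesn1 and Rrm2b were called in no comparison of dTAG with DMSO. The changes of all members in all 8 comparisons are plotted side by side.

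**Figure D1:**
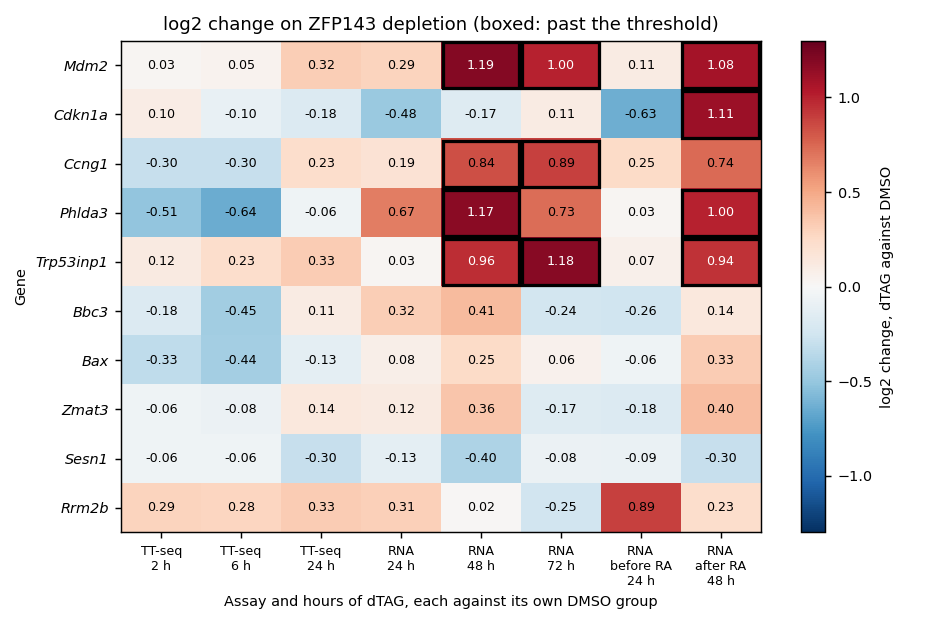
log2 change of each member (vertical axis) in the 8 comparisons of dTAG with DMSO (horizontal axis: assay and hours of depletion), as colour and printed value, with boxes around values past the threshold. The boxes lie in the RNA-seq columns at 48 h, 72 h and after RA, and none lies in the 3 TT-seq columns or in the 2 columns of RNA after 24 h.

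In nascent RNA, transcription of the 10 genes was not detectably different at 2 h, 6 h or 24 h. Genes were called here at an adjusted p under 0.05 and a log2 change beyond 0.5 in edgeR's quasi-likelihood test. No member was called at any time, where 0.168% of all 17870 tested genes were called higher and 2.43% lower at 2 h. At 6 h those shares were 0.397% and 2.83%, and at 24 h they were 2.02% and 4.09%. These shares depend on single libraries, since with any 1 of the compared libraries left out the genes called lower numbered 102 to 292 in place of 435 at 2 h, 109 to 310 in place of 506 at 6 h and 339 to 476 in place of 730 at 24 h. At an unadjusted p under 0.05 there was 1 member at 2 h, 2 at 6 h and 0 at 24 h, all of them lower. Over all genes 11.3%, 17.4% and 21.7% reached that p in either direction, and 7.55%, 10.1% and 11.5% did so downward. DESeq2 called 0 members at each time. Against DMSO, the standard errors of the members' log2 changes ran from 0.146 to 0.313 here and from 0.0448 to 0.116 in the RNA-seq time course, so that small changes were less detectable in nascent RNA.

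Mdm2, whose product restrains p53, had a nascent level of 172 and 240 CPM in the DMSO libraries, 197 and 224 CPM at 2 h, 200 and 227 CPM at 6 h, and 258 and 257 CPM at 24 h. Only the 24 h libraries lay above both controls, and the log2 change of 0.32 ± 0.17 (SE, n = 2 against 2) did not pass (edgeR adjusted p = 0.304). Cdkn1a encodes p21, the inhibitor of cyclin-dependent kinases through which p53 halts the cycle. Its nascent level was 263 and 230 CPM in DMSO, 249 and 279 CPM at 2 h, 207 and 251 CPM at 6 h, and 235 and 201 CPM at 24 h, and the groups overlapped at every time.

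Phlda3, which encodes an inhibitor of the kinase AKT, had the lowest log2 change among the members at 2 h and at 6 h. Its nascent level was 43.8 and 34.6 CPM in DMSO, 23.7 and 31.1 CPM at 2 h, 21.8 and 28.3 CPM at 6 h, and 41.9 and 33.2 CPM at 24 h. Both libraries lay below both controls at 2 h and 6 h, with log2 changes of -0.51 and -0.64 (edgeR adjusted p = 0.418 and 0.174), and the groups overlapped at 24 h. Without a filter on low counts, Phlda3 was called at 6 h, at -0.66 (edgeR adjusted p = 0.0358). Bax and Bbc3, 2 promoters of apoptosis from the BCL2 family, also lay below both controls at 2 h and 6 h, at 55.9 and 71.3 CPM for Bax at 6 h against 83.4 and 89.4 CPM in DMSO, and at 12.9 and 13.9 CPM for Bbc3 against 18 and 18.6 CPM. With these 3 members, non-overlap downward held for 3 of 10 genes at each of the 2 early times, beside 20.6% of all genes at 2 h and 23.7% at 6 h. Between 6 h and 24 h, Phlda3, Bbc3 and Ccng1 differed by 0.58, 0.57 and 0.53 on the log2 scale, none past the threshold (edgeR adjusted p = 0.394, 0.385 and 0.447), each with an unadjusted p under 0.05, which 10.8% of all genes reached. In that step edgeR called 0% of all genes, while DESeq2 called 59 higher and 90 lower and edgeR with a replicate block 94 and 124, with no member among them. From 2 h to 6 h the members differed by -0.27 to 0.12, with none called by edgeR or DESeq2, 0 at an unadjusted p under 0.05 and 0% of all genes called by edgeR.

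**Figure D2:**
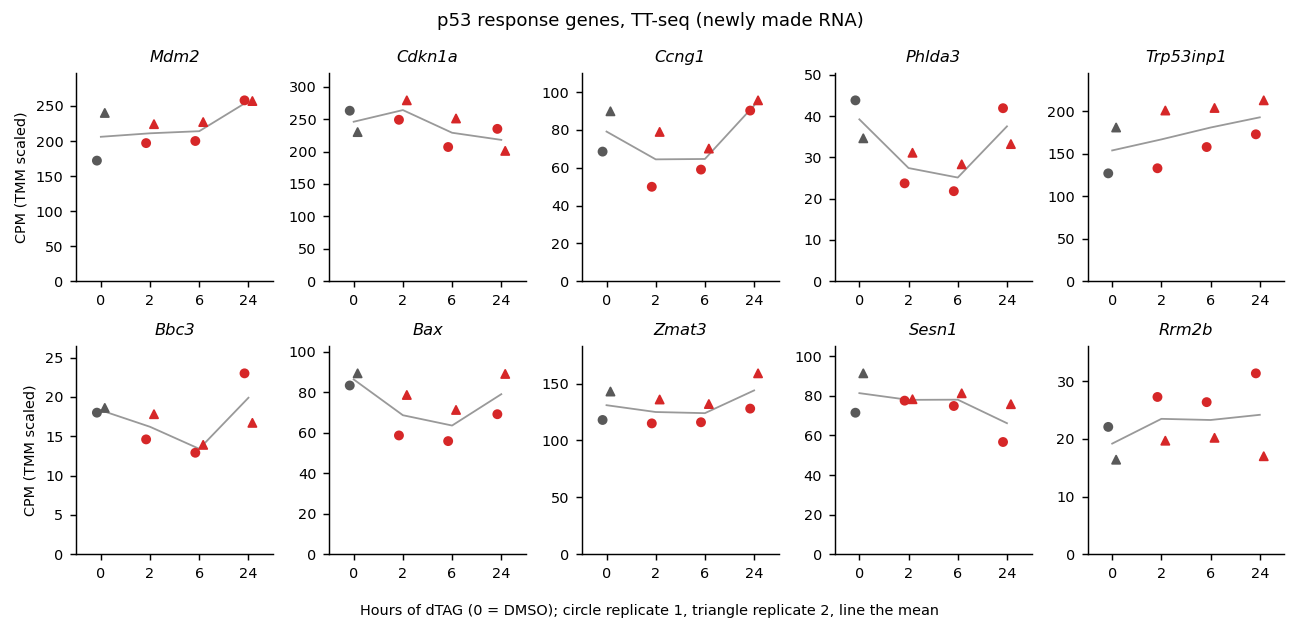
Nascent RNA level of each member in CPM (vertical axes from 0, 1 panel a gene) against hours of dTAG (horizontal axis, 0 for DMSO), with a circle for replicate 1, a triangle for replicate 2 and a line through the means. No member passed the threshold at any time, and Phlda3 shows its lowest values at 2 h and 6 h.

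In the RNA-seq time course, no member had passed by 24 h, 4 rose by 48 h and 3 were still higher at 72 h. A call here needed an adjusted p under 0.01 in edgeR's test against a fold change of 1.5, so a gene that misses it can still differ from its control by less. At 24 h the background was 2.32% of 13925 tested genes called higher and 3.41% lower, and the median log2 change was 0.16 for the members and 0.02 for all genes. For 7 of 10 members both libraries lay above both controls, beside 36.7% of all genes. At an unadjusted p under 0.05, in the test against no change, there were 7 members, 6 of them higher, where 52.9% of all genes reached that p and 26.1% did so upward, while DESeq2 called 0 members. At 48 h, 4 of 10 members were called higher where 10.5% of all genes were, and 0 lower where 7.71% were, with medians of 0.39 and 0.01. At 72 h, 3 were called higher where 13.7% of all genes were, and 0 lower where 12% were, with medians of 0.08 and 0.02.

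Mdm2 was at 162 and 165 CPM in the DMSO libraries, 197 and 204 CPM at 24 h, 362 and 385 CPM at 48 h, and 322 and 333 CPM at 72 h. Every depleted library lay above both controls, and those at 48 h stood highest. The log2 change was 0.29 ± 0.05 at 24 h, not past the test, and Mdm2 rose by 1.19 ± 0.05 at 48 h and by 1.00 ± 0.05 at 72 h (SE, edgeR adjusted p = 4.23e-13 and 6.4e-10).

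Cdkn1a did not share this course. It was at 253 and 235 CPM in DMSO, 174 and 174 CPM at 24 h, 222 and 211 CPM at 48 h, and 259 and 266 CPM at 72 h. Both libraries lay below both controls at 24 h and 48 h and above them at 72 h, with log2 changes of -0.48 ± 0.05, -0.17 ± 0.05 and 0.11 ± 0.05, none past the 1.5-fold test (edgeR adjusted p = 1 at each time). The value at 48 h was 0.03 when libraries were scaled by their totals alone. Ccng1 encodes cyclin G1, which recruits a phosphatase that acts on MDM2. Its level was 349 and 373 CPM in DMSO, 421 and 404 CPM at 24 h, 622 and 671 CPM at 48 h, and 654 and 680 CPM at 72 h. The last 2 times stood well apart from the first 2, and Ccng1 rose by 0.84 ± 0.05 at 48 h and by 0.89 ± 0.05 at 72 h on the log2 scale (edgeR adjusted p = 4.13e-06 and 1.89e-07).

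Of the members that act on survival and death, Phlda3 and Trp53inp1 were called and Bbc3 and Bax were not. Phlda3 was at 59.3 and 60.9 CPM in DMSO, 99.3 and 91.4 CPM at 24 h, 137 and 133 CPM at 48 h, and 103 and 96.6 CPM at 72 h. It was higher in every depleted library and highest at 48 h, where it rose by 1.17 ± 0.06 on the log2 scale (edgeR adjusted p = 1.44e-10). At 24 h the value was 0.67 ± 0.06 and at 72 h 0.73 ± 0.06, and both missed the 1.5-fold test (edgeR adjusted p = 0.249 and 0.0101).

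Trp53inp1 encodes a nuclear protein that promotes p53 activity, autophagy and cell death. It was at 293 and 312 CPM in DMSO, 310 and 307 CPM at 24 h, 562 and 613 CPM at 48 h, and 686 and 686 CPM at 72 h. The 24 h libraries lay within the controls' range, and Trp53inp1 rose by 0.96 ± 0.04 at 48 h and by 1.18 ± 0.04 at 72 h on the log2 scale (edgeR adjusted p = 6.94e-09 and 2.55e-13).

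Bbc3 encodes PUMA, which activates the mitochondrial path of apoptosis. It was at 37.5 and 32 CPM in DMSO, 45.3 and 40.6 CPM at 24 h, 47.1 and 44.8 CPM at 48 h, and 27.9 and 30.1 CPM at 72 h. It thus lay above the controls at 24 h and 48 h and below them at 72 h, with log2 changes of 0.32, 0.41 and -0.24 that did not pass. Bax, a pore former of the outer mitochondrial membrane, had 117 to 120 CPM in DMSO and 120 to 146 CPM in the depleted libraries, with log2 changes between 0.06 and 0.25 that did not pass. Its annotated span overlaps Gm45808, another protein-coding gene on the same strand, and how reads in the shared stretch were assigned makes its counts less certain.

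Zmat3, an RNA-binding protein that acts on splicing and message stability, was at 208 and 206 CPM in DMSO, 225 and 226 CPM at 24 h, 269 and 264 CPM at 48 h, and 192 and 177 CPM at 72 h. As with Bbc3, its libraries lay above both controls at 48 h and below both at 72 h, with log2 changes of 0.36 and -0.17 that did not pass, and the latter was 0.05 when libraries were scaled by their totals alone. Sesn1, a stress sensor that restrains mTORC1 signalling, was at 22 and 26.8 CPM in DMSO, 22.9 and 21.9 CPM at 24 h, 19 and 18.2 CPM at 48 h, and 23.2 and 23.4 CPM at 72 h. Rrm2b supplies a ribonucleotide reductase subunit that makes DNA precursors outside S phase, and it was at 16.1 and 14.5 CPM in DMSO, 18.5 and 19.2 CPM at 24 h, 16.1 and 14.8 CPM at 48 h, and 12.5 and 13 CPM at 72 h. Neither was called, and the largest departures were -0.40 for Sesn1 at 48 h and 0.31 for Rrm2b at 24 h on the log2 scale. Rrm2b overlaps a processed pseudogene and an antisense gene, and Sesn1 a transcript of uncertain status, so their low counts carry the same uncertainty of assignment. An unclassified transcript, AC167363.2, runs antisense to Cdkn1a, and the strand setting of the RNA-seq counts is not given in the sources used here.

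**Figure D3:**
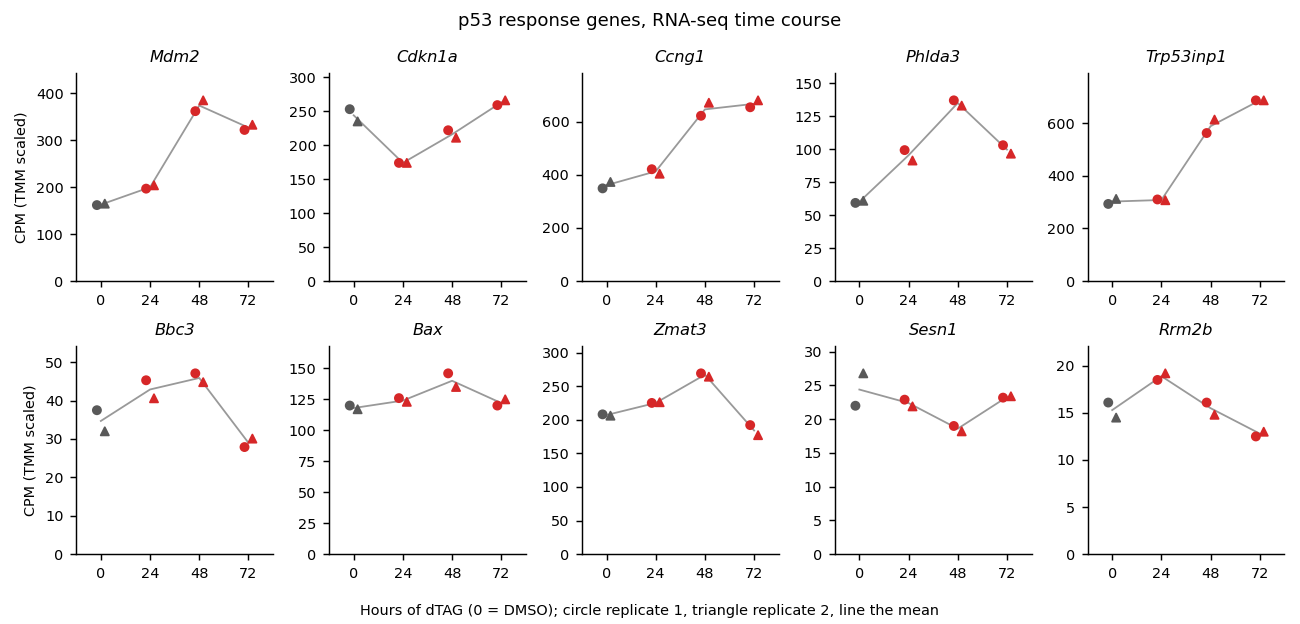
RNA-seq level of each member in CPM (vertical axes from 0, 1 panel a gene) against hours of dTAG (horizontal axis, 0 for DMSO), with a circle for replicate 1, a triangle for replicate 2 and a line through the means. Mdm2, Ccng1 and Trp53inp1 stand apart from DMSO at 48 h and 72 h, Phlda3 peaks at 48 h, and Cdkn1a is lowest at 24 h.

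Successive times were compared directly, with no DMSO library in the comparison. From 24 h to 48 h, 2 of 10 members rose where 2.32% of all genes did, Trp53inp1 by 0.93 ± 0.04 and Mdm2 by 0.90 ± 0.04 on the log2 scale (edgeR adjusted p = 2.29e-07 and 1.13e-06), and 0 fell where 0.912% of all genes did. Ccng1 differed by 0.65 and Phlda3 by 0.50, short of the 1.5-fold test (edgeR adjusted p = 0.328 and 1) and past a test against no change at an adjusted p under 0.05 and a log2 change beyond 0.5 (edgeR adjusted p = 2.76e-12 and 1.42e-08). From 48 h to 72 h no member was called by edgeR or by DESeq2, where 0.862% of all genes were called higher and 0.847% lower, although 9 members had an unadjusted p under 0.05 in the test against no change, as did 50.7% of all genes. Of these 9, 6 were lower at 72 h, with Bbc3 at -0.66, Zmat3 at -0.53, Phlda3 at -0.44 and Mdm2 at -0.19 on the log2 scale, and 3 were higher, with Sesn1 at 0.33, Cdkn1a at 0.28 and Trp53inp1 at 0.22. Over all genes 25.5% reached that p downward and 25.1% upward.

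Before RA, after 24 h of depletion, no member had changed past the threshold, and after RA, with 48 h of depletion, 4 of 10 had risen. Before RA the background was 2.74% of 15915 tested genes called higher and 3.66% lower, and the members' median log2 change was -0.01, beside 0.06 for all genes. At an unadjusted p under 0.05 there were 5 members, 2 higher and 3 lower, beside 49.9% of all genes, and DESeq2 called 0 members. After RA, 9.1% of all genes were called higher and 7.36% lower, the members called lower numbered 0, and the medians were 0.57 and 0.00. Both RA-treated depleted libraries lay above both RA-treated controls for 8 of 10 members, beside 40% of all genes.

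Cdkn1a showed the widest difference between the 2 conditions. It was at 176 and 204 CPM in DMSO, 118 and 128 CPM in dTAG, 89.1 and 72.1 CPM in DMSO with RA, and 188 and 160 CPM in dTAG with RA. Depleted cells thus lay below the controls before RA and above them after RA, with no overlap in either condition. The log2 change before RA was -0.63 ± 0.10, which did not pass the 1.5-fold test (edgeR adjusted p = 0.686) but passed the test against no change (edgeR adjusted p = 2.37e-05), and after RA Cdkn1a rose by 1.11 ± 0.10 (edgeR adjusted p = 3.04e-05). The difference between these effects, the interaction of RA and depletion, was 1.73 ± 0.14 on the log2 scale (edgeR quasi-likelihood adjusted p = 4.39e-09). With RA, Cdkn1a fell by 1.23 ± 0.10 on the log2 scale in DMSO cells (edgeR adjusted p = 6.52e-07), while in depleted cells it differed by 0.51 ± 0.10 and did not pass (edgeR adjusted p = 0.789).

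Mdm2 was at 131 and 117 CPM in DMSO, 136 and 131 CPM in dTAG, 166 and 164 CPM in DMSO with RA, and 355 and 343 CPM in dTAG with RA. The last group stood far above the other 3. The log2 change was 0.11 ± 0.07 before RA, and Mdm2 rose by 1.08 ± 0.07 after RA (edgeR adjusted p = 9.57e-07), an interaction of 0.97 ± 0.10 (edgeR adjusted p = 1.68e-07).

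Phlda3 was at 58.4 and 66.5 CPM in DMSO, 65.8 and 61.8 CPM in dTAG, 47.9 and 49.8 CPM in DMSO with RA, and 102 and 93.2 CPM in dTAG with RA, so that the groups overlapped before RA and separated after it. Its log2 change was 0.03 before RA, it rose by 1.00 ± 0.08 after RA (edgeR adjusted p = 5.9e-05), and the interaction was 0.97 ± 0.12 (edgeR adjusted p = 1.23e-06). Trp53inp1 was at 170 and 161 CPM in DMSO, 176 and 173 CPM in dTAG, 295 and 281 CPM in DMSO with RA, and 560 and 541 CPM in dTAG with RA. It rose with RA in both arms, by 0.80 in DMSO and 1.66 in dTAG (edgeR adjusted p = 0.00125 and 8.45e-13), and the depletion effect was 0.07 before RA and 0.94 ± 0.07 after it (edgeR adjusted p = 1 and 3.68e-05), an interaction of 0.86 ± 0.10 (edgeR adjusted p = 4.28e-07).

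Ccng1, at 265 and 288 CPM in DMSO with RA and 453 and 468 CPM in dTAG with RA, also separated after RA, but its log2 change of 0.74 ± 0.07 missed the 1.5-fold test (edgeR adjusted p = 0.0327). Its interaction of 0.49 ± 0.10 had an adjusted p of 0.000717 in edgeR and was just short of the log2 limit of 0.5. Zmat3 was at 178 and 162 CPM in DMSO, 151 and 150 CPM in dTAG, 235 and 230 CPM in DMSO with RA, and 308 and 307 CPM in dTAG with RA. Its depletion effect was -0.18 before RA and 0.40 after it, neither called, and the difference between them was 0.58 ± 0.10 (edgeR adjusted p = 5.47e-05).

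Rrm2b went the other way. It was at 7.18 and 6.07 CPM in DMSO, 12.5 and 12.1 CPM in dTAG, 19.9 and 22 CPM in DMSO with RA, and 23.8 and 25.2 CPM in dTAG with RA. The gap between depleted and control cells was wider before RA, at 0.89 ± 0.13 on the log2 scale (edgeR adjusted p = 0.0503), than after it, at 0.23 ± 0.11, and the interaction was -0.65 ± 0.17 (edgeR adjusted p = 0.00441). Bbc3, Bax and Sesn1 had depletion effects of -0.26, -0.06 and -0.09 before RA and of 0.14, 0.33 and -0.30 after RA, and none of their interactions was called.

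Across the 10 members, the interaction was called upward for 5, Cdkn1a, Mdm2, Phlda3, Trp53inp1 and Zmat3, where 13.7% of all genes were, and downward for 1, Rrm2b, where 18% were. The medians were 0.54 for the members and -0.07 for all genes. Without dTAG with RA replicate 2 there were 8 members called upward, where 14.6% of all genes were. Against a fold change of 1.5 at an adjusted p under 0.01 there were 3 upward, where 4.48% of all genes were, and 0 downward, where 4.4% were. The 2 depletion effects rest on cells depleted for different times, so that the effects of RA, medium and 24 h more of depletion cannot be told apart in it. Values from the time course, a separate table that was scaled on its own, stand beside them without a test: at 48 h without RA the log2 changes were 1.19 for Mdm2, 0.84 for Ccng1, 1.17 for Phlda3 and 0.96 for Trp53inp1, against 1.08, 0.74, 1.00 and 0.94 after RA with 48 h of depletion. Cdkn1a stood at -0.17 without RA and 1.11 after RA. At 24 h of depletion the 2 RNA-seq tables gave -0.48 and -0.63 for Cdkn1a, 0.67 and 0.03 for Phlda3, and 0.31 and 0.89 for Rrm2b.

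The groups with RA also differ from those without it in medium and in time of collection, and their comparison covers all of these. In DMSO cells 4 rose, Rrm2b by 1.65, Bbc3 by 0.93, Sesn1 by 0.81 and Trp53inp1 by 0.80, where 25.8% of all genes rose, and 2 fell, Cdkn1a and Bax, with log2 changes of -1.23 and -0.88, where 18.1% fell (edgeR adjusted p between 2.63e-08 and 0.00464). In depleted cells 6 rose, Trp53inp1 by 1.66, Mdm2 by 1.39, Bbc3 by 1.32, Zmat3 by 1.03, Rrm2b by 1.00 and Ccng1 by 0.78, where 25% of all genes rose, and 0 fell, where 18.5% did. Bbc3 was at 23.3 and 28.7 CPM in DMSO and at 52.1 and 46.2 CPM in DMSO with RA, and Bax at 142 and 161 CPM and at 84.4 and 80.2 CPM, so that 2 partners in apoptosis moved in opposite directions. Sesn1 was at 31.5 and 31.7 CPM in DMSO and 54.1 and 56.6 CPM in DMSO with RA, with no overlap. DESeq2 called 1 member higher with RA in DMSO cells, Rrm2b, and edgeR called 2 without DMSO replicate 1 or without DMSO with RA replicate 1. With scaling by library totals alone, Bax stood at -0.56 in DMSO cells and was not called, and Cdkn1a at 0.90 in depleted cells and was.

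Other measures moved with the RA groups. Stem cell markers summed to 1460 to 2070 CPM in DMSO with RA and to 1560 to 1880 CPM in dTAG with RA, which overlap. Singly, 4 of the 11 rose and 1 fell in depleted cells after RA, beside 9.1% and 7.36% of all genes, and their interaction was called upward for 7 and downward for 1, with medians of 0.61 and 0.73 on the log2 scale. The 8 primitive endoderm markers summed to 42.5 to 44.7 CPM in DMSO with RA and 59.2 to 61.9 CPM in dTAG with RA, with 1 of the 7 tested called higher and 1 lower, the 6 trophoblast markers to 3.61 to 4.36 CPM and 10.3 to 11.7 CPM, the 6 fibroblast markers to 7.1 to 10.5 CPM and 26.7 to 27.1 CPM, the 5 mesoderm markers to 12.7 to 13 CPM and 16.5 to 17.1 CPM, and the 6 neural markers to 116 to 134 CPM and 68.2 to 69.2 CPM. Of those tested, 2 of 2 trophoblast, 2 of 3 fibroblast and 1 of 4 mesoderm markers were called higher, and 2 of 5 neural markers lower. Of the fibroblast markers only Col3a1 was at 0, in DMSO with RA, and no marker of the other lists was at 0 in both libraries of an RA group. Transcripts of mitochondrial DNA made up 1.61% to 1.81% of counts in DMSO with RA and 0.394% to 0.397% in dTAG with RA. The part of these differences in the members' changes was not tested.

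**Figure D4:**
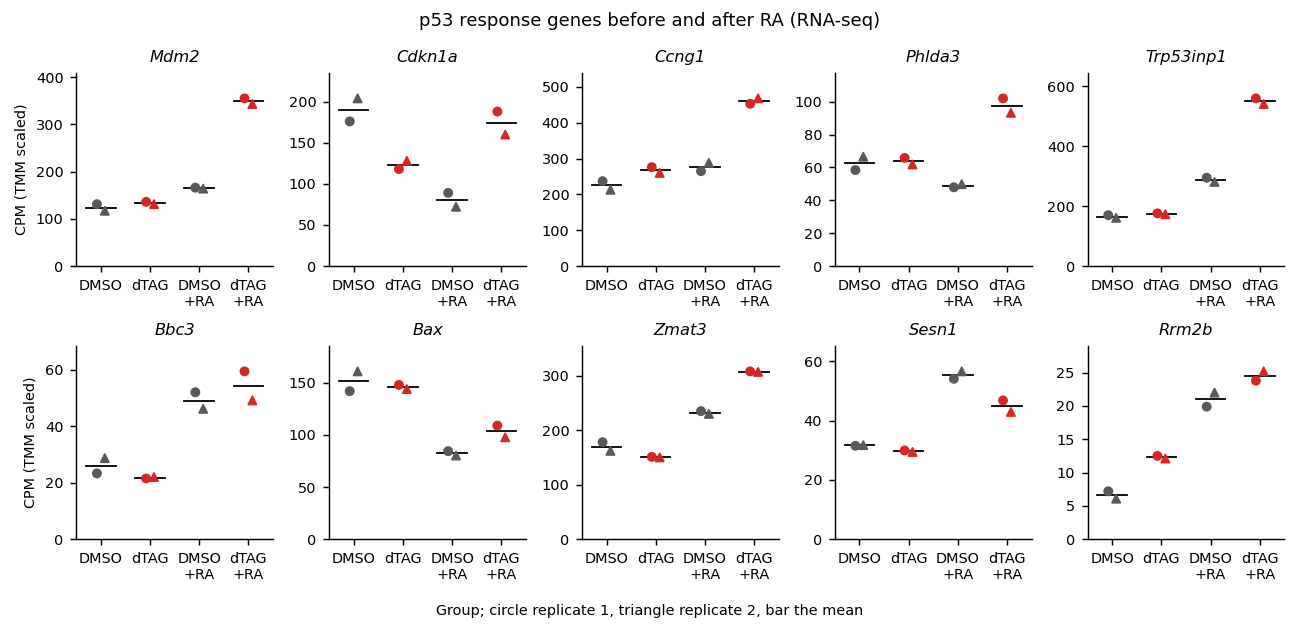
RNA-seq level of each member in CPM (vertical axes from 0, 1 panel a gene) in the 4 groups of the RA table (horizontal axis), with a circle for replicate 1 and a triangle for replicate 2. Mdm2, Phlda3 and Trp53inp1 stand highest in dTAG with RA, Cdkn1a is lowest in DMSO with RA, and Rrm2b lies higher with RA in both arms.

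The genes that control p53 were read beside its targets. Trp53, which encodes p53, differed from DMSO by -0.32, -0.38 and 0.15 on the log2 scale in nascent RNA at 2 h, 6 h and 24 h and by 0.00, 0.21 and 0.16 in RNA-seq at 24 h, 48 h and 72 h, none of them called. With RA it fell from 574 to 127 CPM in DMSO cells, a log2 change of -2.18 ± 0.07, and from 607 to 210 CPM in depleted cells, a log2 change of -1.53 ± 0.07 (means of 2 libraries, edgeR adjusted p = 3.69e-15 and 4.9e-12). After RA it stood at 0.73 in depleted against control cells, short of the 1.5-fold test (edgeR adjusted p = 0.0332), and its interaction of 0.65 passed (edgeR adjusted p = 1.42e-05). Mdm4, which restrains p53 with MDM2, differed by 0.41, 0.61 and 0.28 at 24 h, 48 h and 72 h and was not called.

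Rpl11 and Rpl5 encode ribosomal proteins of the large subunit that bind and block MDM2 when they are free of the ribosome. Rpl11 fell in nascent RNA, with log2 changes of -0.72 ± 0.14 at 6 h and -0.59 ± 0.14 at 24 h (edgeR adjusted p = 0.0324 and 0.0469), and in RNA-seq, with -0.89 ± 0.06 at 72 h, from a mean of 274 to 148 CPM, and -1.43 ± 0.07 after RA, from 300 to 111 CPM (edgeR adjusted p = 1.44e-05 and 5.11e-10). At 24 h and 48 h its RNA-seq log2 changes were -0.26 and -0.59 and did not pass. Rpl5 stood at -0.64 at 72 h and -0.61 after RA and was not called, while its interaction of -0.68 was (edgeR adjusted p = 1.44e-05). Of the 18 tested genes on the list of p53 regulators, 1 rose and 0 fell at 48 h and 2 rose and 1 fell at 72 h, which is near or under the shares of all genes (10.5% higher and 7.71% lower at 48 h, 13.7% and 12% at 72 h). The risers at 72 h were Trp73, a relative of p53, by 1.45, and the coactivator Crebbp by 0.75 (edgeR adjusted p = 2.34e-07 and 0.00658).

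A list of 32 further p53 targets was read in the same fits. In nascent RNA edgeR called 0 of 30 tested at 2 h, 6 h and 24 h. An unadjusted p under 0.05 was reached by 4 of these at 2 h, all lower, by 1 higher and 7 lower at 6 h, and by 3 higher and 2 lower at 24 h, beside 11.3%, 17.4% and 21.7% of all genes in either direction, and DESeq2 called 1, lower at 6 h. In RNA-seq 2 of 32 rose at 24 h, 17 at 48 h and 14 at 72 h, with none lower, and 2 rose before RA and 14 after it. Over all genes the shares called higher in these comparisons were 2.32%, 10.5%, 13.7%, 2.74% and 9.1%, so that calls were more frequent at the later times among genes in general. Their median log2 changes were 0.79 at 48 h, 0.59 at 72 h and 0.72 after RA, beside 0.01, 0.02 and 0.00 for all genes. The interaction was called upward for 17 and downward for 1, beside 13.7% and 18% of all genes. With a replicate block, 1 of these targets was called lower in nascent RNA at 2 h, 2 lower at 6 h, and 1 higher and 1 lower at 24 h, and the count before RA was 1, as it was without either DMSO library or without dTAG replicate 2.

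Among its called genes with a mean count of at least 100, the largest increases at 72 h were those of Gadd45a, which acts in growth arrest after DNA damage, and Plk2, a kinase of the polo family. Gadd45a was called already at 24 h, where it rose by 1.59, and it rose by 2.87 at 48 h and 3.18 at 72 h. Plk2 rose by 1.02 after 24 h, 2.56 after 48 h and 2.85 after 72 h, and all 6 values had an edgeR adjusted p of 5.85e-06 or lower. Neither was called in nascent RNA at 24 h, where the values were 1.01 for Gadd45a and 0.48 for Plk2 (edgeR adjusted p = 0.102 and 0.576). Gadd45a also rose before RA, by 1.52, while Plk2 stood at 0.43 there (edgeR adjusted p = 2.77e-07 and 1).

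Of the 31 cell cycle genes that p53 is known to lower through p21, 2 fell in RNA-seq at 24 h, 8 at 48 h, 11 at 72 h and 9 after RA, and none rose, beside 3.41%, 7.71%, 12% and 7.36% of all genes called lower. The count at 24 h was 1 without dTAG replicate 2 of that time. Among them Rrm2, the S-phase counterpart of Rrm2b, had a log2 change of -1.51 at 72 h, and Ccne1, which encodes cyclin E1, of -1.33 (edgeR adjusted p = 1.07e-17 and 7.91e-13). In nascent RNA 4, 3 and 4 of these genes were called lower at 2 h, 6 h and 24 h, beside 2.43%, 2.83% and 4.09% of all genes, at times when Cdkn1a itself was at 0.10, -0.10 and -0.18, and with any 1 of the 4 libraries compared left out the count was 1 at 2 h, 1 at 6 h and 1 to 3 at 24 h. With RA, 15 of the 31 fell in DMSO cells and 24 in depleted cells, beside 18.1% and 18.5% of all genes, or 7 and 11 when libraries were scaled by their totals alone.

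A list of 19 genes of the integrated stress response, the ATF4 programme, had genes called already at 24 h. Its timing was not tested against that of the p53 lists. It had 4 genes higher in nascent RNA at 24 h and 9, 12 and 12 higher in RNA-seq at 24 h, 48 h and 72 h, with 10 higher before RA and 10 after it. Over all genes the shares called higher were 2.02% in nascent RNA at 24 h, 2.32%, 10.5% and 13.7% in RNA-seq, and 2.74% and 9.1% before and after RA. The nascent count of 4 was 8 without DMSO replicate 1, 2 without DMSO replicate 2, 9 with DESeq2 and 9 with a replicate block. Cebpb and Atf5, 2 of its transcription factors, rose by 2.77 and 1.83 at 24 h and by 3.66 and 3.35 at 72 h, and Psat1, an enzyme of serine synthesis, fell by 0.83 at 72 h (edgeR adjusted p of 1.1e-06 or lower). The part of this list in the members' changes was not tested.

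**Figure D5:**
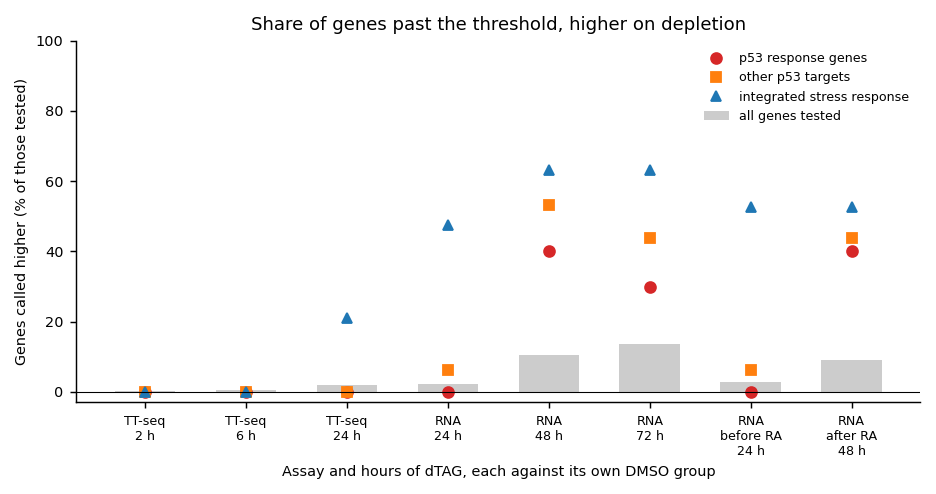
Share of tested genes called higher (vertical axis, percent) in each comparison of dTAG with DMSO (horizontal axis: assay and hours of depletion) for the 10 members, the other p53 targets and the integrated stress response genes as points, with all tested genes as grey bars. The members reach 40% at 48 h, 30% at 72 h and 40% after RA, over bars of 10.5%, 13.7% and 9.1%, and lie at 0% in the 5 comparisons at 24 h or less.

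A ZFP143 peak lay at 2 of the 10 gene starts. Taking 2000 bp before and 1000 bp after each annotated transcript start, a peak of the deposited ZFP143 list was found at Mdm2 and Sesn1, where 14.6% of 14963 tested protein-coding genes had one, and for the other 8 members the nearest peak centre was 8582 bp (Bax) to 2992743 bp (Ccng1) away. The Mdm2 peak, chr10:117710027-117710458, lay downstream of the gene start, with its centre 50 bp from another annotated transcript start, and was 39.2-fold over input with a −log10 q of 99.8. The Sesn1 peak, chr10:41809313-41809999, was centred 279 bp upstream of the gene start and was 71.3-fold over input with a −log10 q of 214.3. There was 1 list of ZFP143 peaks, which the labels name for both the DMSO and the dTAG sample, so these heights have no replicate check.

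A ZFP143 motif, ACTACA and then, after 2 free bases, TCCCA, was searched on both strands and was found in 847 of 3189 ZFP143 peaks (26.6%) and in 1.47% of 32851 RefSeq promoter windows of the mm10 build. The Sesn1 peak held 2 copies, 1 on each strand, and the Mdm2 peak held 0. Since most ZFP143 peaks lack this exact pattern, its absence at Mdm2 says only that these letters are not there. The stretch of the Sesn1 peak with both copies in capitals, chr10:41809641-41809717 on the plus strand, is shown because Sesn1 combined the highest ZFP143 peak among the members with log2 changes of -0.06, -0.06 and -0.30 in nascent RNA at 2 h, 6 h and 24 h, none of which passed.

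Sesn1 peak: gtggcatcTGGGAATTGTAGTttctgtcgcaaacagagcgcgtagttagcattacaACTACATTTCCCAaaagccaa

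Mdm2 likewise stood at 0.03, 0.05 and 0.32 in nascent RNA and was not called, and it too lay near a peak. Peaks also overlapped the start windows of Trp53 and Rpl11, with centres 8 bp and 15 bp from a transcript start, and not those of Mdm4 or Rpl5. CTCF peaks overlapped the window at Mdm2 and Bbc3, 2 of 10 members, where 22.3% of genes had one.

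Levels between genes are compared per kilobase of annotated exon in RNA-seq and of gene in TT-seq. In DMSO cells of the time course, Ccng1 had the highest level, 103.0 ± 4.9 CPM per kb (SD, n = 2), followed by Bax at 74.9 ± 1.3, Cdkn1a at 68.6 ± 3.7, Trp53inp1 at 46.7 ± 2.1, Phlda3 at 38.5 ± 0.7 and Mdm2 at 32.2 ± 0.4. Zmat3 at 18.1 ± 0.1 and Bbc3 at 16.4 ± 1.8 differed by less than the SD of Bbc3, and Sesn1 at 6.13 ± 0.86 and Rrm2b at 1.68 ± 0.13 came last. In nascent RNA Cdkn1a led instead, at 25.3 ± 2.4 CPM per kb, followed by Bax at 16.6 ± 0.8. Phlda3 at 13 ± 2.2 and Ccng1 at 11.7 ± 2.2 differed by less than their SDs there, as did Mdm2 at 9.42 ± 2.19 and Trp53inp1 at 8.56 ± 2.12, and Sesn1 and Rrm2b were again lowest, at 0.827 ± 0.143 and 0.515 ± 0.107.

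The course of Cdkn1a was set beside that of the other members. Over the 8 libraries of the time course and the 8 of the RA table, its Pearson r with Mdm2 was 0.224 and 0.193, with Phlda3 -0.247 and 0.696, with Bax -0.202 and 0.646, with Trp53inp1 0.498 and 0.034, and with Rrm2b -0.872 and -0.446, as a description over libraries that share groups and scaling. Among 9761 genes with a mean count of at least 100 in both tables, those most like it were Atp6v1a (r = 0.956 and 0.980), Washc2 (0.918 and 0.944) and Ephb3 (0.917 and 0.978), which encode a subunit of the vesicular proton pump, a part of the WASH complex on endosomes and an ephrin receptor. Atp6v1a had mean levels of 245, 197, 227 and 267 CPM in DMSO and at 24 h, 48 h and 72 h.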

How the data were processed

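For TT-seq, the authors mapped reads to mm10 with STAR, kept unique reads, removed duplicates and counted reads over whole genes with htseq-count. For RNA-seq, the counts deposited by the authors came from STAR's own gene counts with the GENCODE vM25 annotation, and the strand column taken is not given in the sources used here, so reads of a gene and of an antisense partner may not be separable. The deposited values are raw counts in 3 tables of 8 libraries each. The ZFP143 peaks were called by the authors with MACS2 against input, and the deposited list, which the labels name for both the DMSO and the dTAG sample, gives each peak's fold enrichment over input, a ratio, and its −log10 q-value. The CTCF list was used for positions only, and chromatin contact files and signal tracks were not used here.

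From these files, edgeR 4.0.16 (R 4.3.3, limma 3.58.1) was run per table with TMM scaling and a mean for each of the 4 groups of 2, after a filter that asked for over 10 counts in 4 or more of the libraries and left 17870 genes in TT-seq, 13925 in the time course and 15915 in the RA table. TT-seq comparisons and the interaction used the quasi-likelihood test at a Benjamini-Hochberg adjusted p under 0.05 and a log2 change beyond 0.5, and RNA-seq comparisons used the test against a fold change of 1.5 at an adjusted p under 0.01. These thresholds follow the study for both assays, and since its methods state none for an interaction, the TT-seq rule was taken there. The biological coefficient of variation was 17.2%, 3.65% and 5.92% in the 3 tables. A standard error is the log2 change over the square root of its F value. The scripts were tested on simulated counts.

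Gene positions came from GENCODE vM21 on GRCm38, in which 55141 of 55401 identifiers matched, and sequence from the GRCm38.p6 genome. All members are named, and of the other lists the genes that control p53 (Trp53, Mdm4, Rpl5 and Rpl11) and, per list, up to 2 called genes with the largest increase and 2 with the largest decrease at 72 h at a mean count of at least 100. The members and lists were chosen with earlier results of these data known. Alternatives were DESeq2 1.42.0, its size factors, library size alone, no filter on low counts, a replicate block, the other threshold rule and leaving out each library.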

Additional observations from a re-analysis of the deposited data

Results flagged for a closer look

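For 6 members the effect of depletion before RA and its effect after RA differed by a test of the difference itself, the interaction term in edgeR's quasi-likelihood fit. The log2 change after RA minus that before RA was 1.73 for Cdkn1a, 0.97 for Mdm2, 0.97 for Phlda3, 0.86 for Trp53inp1 and 0.58 for Zmat3, and it was -0.65 for Rrm2b (adjusted p = 4.39e-09, 1.68e-07, 1.23e-06, 4.28e-07, 5.47e-05 and 0.00441). Cdkn1a had effects of opposite sign in the 2 conditions, with both depleted libraries below both controls before RA and above both after it. The depleted cells after RA had 48 h of dTAG and those before RA 24 h, so that RA, the change of medium and the length of depletion cannot be told apart. With 2 libraries in each group, no library could be checked as an outlier within its group.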

How the results depend on the processing

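The members called at 48 h (4), at 72 h (3) and after RA (4) kept these numbers when each library was left out in turn and with DESeq2. Of all values of member log2 changes under the alternatives, 1469 kept their side of the threshold, with no change of sign larger than the standard error. A call was lost by 17 and gained by 32. Another 22 changed sign by more than the standard error, none of these 22 called, and the cause was not tested. The labels do not say what a shared replicate number marks, and each comparison holds only 2 pairs of the same number. Correlations of deviations between samples with the same number were 0.214 to 0.667 in TT-seq, -0.056 to 0.058 in the time course and -0.175 to 0.192 in the RA table. With a replicate block all 30 member counts stayed as they were while over all genes the TT-seq calls at 2 h were 87 higher and 662 lower (30 and 435 without it), those at 6 h were 359 and 956 (71 and 506), those at 24 h were 1009 and 1214 (361 and 730), and those from 6 h to 24 h were 94 and 124 (0 and 0). Of the counts for other lists, 10 moved with the block, 9 of them in TT-seq.

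Counts of members that moved by more than 1.5 times were these. Without a filter on low counts 1 was lower in TT-seq at 6 h (Phlda3). With library size alone 1 was higher at 24 h, 1 higher before RA and 1 lower with RA in DMSO cells, where the split of calls was 5 higher and 1 lower in place of 4 and 2. With the other threshold rule 1 was higher at 24 h (11.4% of all genes), 4 higher from 24 h to 48 h (10.9%), 2 lower from 48 h to 72 h (7.76%), 1 higher and 1 lower before RA (14.5% and 8.43%), and 3 higher and 0 lower in the interaction (4.48% and 4.4%). With RA in DMSO cells DESeq2 called 1 higher, and leaving out single libraries gave 2 to 3. Leaving out single libraries gave 5 to 8 higher in the interaction, the 8 without dTAG with RA replicate 2. Smaller moves, both with library size alone and with the other threshold rule, were 4 higher in place of 3 at 72 h (Phlda3 added), 5 in place of 4 after RA (Ccng1 added) and 9 in place of 6 with RA in dTAG cells. The median member level in the time course was 148 CPM with library size alone (152 CPM with TMM), 4 members lay within 5000 bp of a CTCF peak, as did 37.1% of genes (2 in the narrower window), and 2 had a p53 match with no mismatch.

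Library size alone moved the median log2 change of all genes to 0.15, 0.21 and 0.23 at 24 h, 48 h and 72 h, to 0.20 before and 0.21 after RA, and to 0.35 and 0.39 with RA in DMSO and dTAG cells, which is to be read into its values. It changed the sign of Cdkn1a at 48 h (0.03), Zmat3 and Sesn1 at 72 h (0.05 and 0.14), and Bax and Sesn1 before RA (0.08 and 0.04). Leaving out single libraries changed the sign of small values. In TT-seq the ranges were, at 2 h, -0.18 to 0.31 for Mdm2, -0.21 to 0.41 for Trp53inp1, -0.18 to 0.11 for Zmat3 and -0.22 to 0.14 for Sesn1, at 6 h -0.17 to 0.32 for Mdm2 and -0.23 to 0.14 for Sesn1, and at 24 h -0.13 to 0.34 for Bbc3 and -0.18 to 0.72 for Rrm2b. From 2 h to 6 h they were -0.29 to 0.36 for Ccng1, -0.15 to 0.43 for Trp53inp1 and -0.31 to 0.10 for Bax, and from 6 h to 24 h -0.46 to 0.44 for Rrm2b. In RNA-seq they were -0.26 to 0.03 at 24 h and -0.20 to 0.09 at 72 h for Sesn1, -0.02 to 0.09 from 48 h to 72 h for Ccng1, and before RA -0.06 to 0.13 for Phlda3 and -0.15 to 0.04 for Bax.

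Over all genes, DESeq2 called 102 in place of 323 higher at 24 h, 780 in place of 1456 at 48 h, 1123 in place of 1912 at 72 h, 143 in place of 436 before RA, and 789 in place of 1449 higher and 765 in place of 1171 lower after RA. In TT-seq it called more genes higher, 52 in place of 30 at 2 h and 157 in place of 71 at 6 h, and with no filter on low counts these were 162, 338 and 1025 in place of 30, 71 and 361 at 2 h, 6 h and 24 h. The spread in TT-seq limits what can be detected there.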

Other observations

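The relatives of the members were read in the same fits. Of 12 tested other members of the BCL2 family, 2 rose and 2 fell at 72 h, near the shares of all genes, 13.7% and 12%. Hrk, which promotes apoptosis in neurons and in blood cells, rose by 3.22 at 48 h and 3.64 at 72 h on the log2 scale, and it was already higher in nascent RNA at 24 h, by 1.55 (edgeR adjusted p = 9.07e-12, 6.15e-14 and 0.0126). Bak1, the pore-forming partner of BAX, fell by 0.99 at 72 h (edgeR adjusted p = 2.12e-07), and Bax itself was not called.

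Among 11 tested paralogs of the members, 1 rose and 3 fell at 72 h, beside the same shares of all genes. The lists share genes, since Rrm2 is also counted among the cell cycle genes and Sesn2 among the further p53 targets. Sesn2, a paralog of Sesn1 that the integrated stress response also raises, rose by 0.74 at 72 h and by 0.87 after RA (edgeR adjusted p = 0.000508 and 0.00132), while Sesn1 was not called. Zmat5, a component of the minor spliceosome, fell by 3.85 at 72 h and was already lower in nascent RNA at 2 h, at -1.93 (edgeR adjusted p = 2.3e-16 and 0.00439), while Zmat3 was not called.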
